A study of Mus musculus with 7 samples.

Results

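The 9 genes described here, *Cd9*, *Alcam*, *Cacna2d3*, *Adamtsl3*, *Col16a1*, *Col27a1*, *Fmn1*, *Gas7* and *Ermard*, were followed through the glia and neurons of the mouse hippocampus. They were picked by name, out of 55536 genes in the deposited table of which 34541 had a count in the nuclei used, because earlier results of these data showed them to differ between Arctic and WT mice in more than 1 kind of glia. The genotype difference in nuclei is therefore how they were found, and it is given below as a description with no p. Where edgeR's calls for it are counted, they describe the genes and are no test of them. Tests are kept for what did not choose them, namely PMX205, sex, CD11b-selected microglia, vascular and ependymal nuclei, and nuclei compared with other nuclei of the same mouse. The last of these contrasts did not choose the genes, but it uses Arctic nuclei that took part in the choice. Some CD11b-selected cells may come from the same mice as the nuclei, so the tests on cells may not be independent of the choice.

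Arctic48 (Arc) mice carry 1 copy of a human APP transgene with the Swedish, Indiana and Arctic mutations on a C57BL/6J background, which makes them form amyloid plaques, and their WT littermates do not carry it. The promoter of the transgene was not given in the sources used here. Mice drank plain water (vehicle, veh) or water with PMX205, a cyclic hexapeptide that blocks the receptor C5aR1 of the complement fragment C5a, at 20 µg/ml for 12 weeks by the sample labels, were housed singly, and were 10 months old at the end. The study's text gives a somewhat shorter span of treatment. The 4 groups are named by genotype and drink (WT-veh and WT-PMX; Arc-veh and Arc-PMX), and 4 values in a row are given in that order. Each group has 6 wells of single nuclei (SN) and 6 wells of CD11b-selected single cells (SC), 3 of females and 3 of males (F1 to F3 and M1 to M3). An SN well held nuclei of the frozen hippocampus of 1 mouse, whereas an SC well pooled cells of several mice of the same sex and group, taken in the presence of transcription and translation inhibitors. All 48 wells were pooled before the second barcoding round and split over 7 sublibraries, so the well is the replicate. Dates of perfusion, isolation and fixation, which came before the pooling, were not given in the sources used here.

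After filtering, 43885 nuclei and 3823 cells remained, with 1150 to 3111 nuclei and 4389302 to 30001277 transcripts per SN well and 2 to 758 cells and 1135 to 1430787 transcripts per SC well. Clusters were named from marker genes as 23577 neuron-like, 5440 astrocyte-like, 4151 oligodendrocyte-like, 1425 oligodendrocyte progenitor (OPC)-like and 1519 microglia-like nuclei and 2166 microglia-like SC cells, called by the cell type alone from here on. At least 10% of the nuclei of each type held a transcript of 8 of 8 astrocyte, 8 of 8 oligodendrocyte, 6 of 6 OPC, 9 of 10 microglia and 8 of 8 neuron markers. Other types' markers also reached that share, namely 5 of 8 astrocyte, 4 of 8 neuron and 3 of 8 oligodendrocyte markers in OPCs and 4 of 8 astrocyte, 3 of 8 oligodendrocyte and 2 of 6 OPC markers in neurons, against at most 2 of any other list in the remaining 3 types. The same barcode name occurred in more than 1 sublibrary for 3835 nuclei and 135 cells, which were kept as separate nuclei and cells. *App*, counted on the mouse genome, lay at 543 to 794 CPM (median 645) in the neurons of the 12 Arctic wells and at 446 to 574 CPM (median 497) in those of the 12 WT wells. The study left out 1 WT sample because its expression was that of an Arctic mouse but did not name it, so no well was removed here. The SC well WT-veh F2 stood apart from the other WT-veh wells in *Gas7*, as given below, and the SN wells WT-veh F3 and M3 held 14 and 28 oligodendrocytes, so results that rest on these wells are also given without them. As an alternative, each nucleus was named singly by its highest marker score, whatever its cluster. That raised microglia from 263 to 550 nuclei in WT and from 1256 to 1664 in Arctic mice, OPCs from 1425 to 2896 and oligodendrocytes from 4151 to 4809 in all, and astrocytes from 5440 to 5484. Of the 728 nuclei added to microglia, 654 came from clusters left unnamed and 69 from neuron clusters; of the 1506 added to OPCs, 540 and 936 did. The nuclei added to microglia had a median of 2929 transcripts, against 1008 in the microglial clusters. Among the unnamed clusters was 1 of 1087 nuclei, doublets included, in which 10 of 10 microglial markers reached the 10% share. It was left unnamed because its neuron marker counts exceeded its microglial ones. The larger of the values that it moved by over 1.5 times or turned in sign stand below, and the part of the added nuclei in them was not tested.

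Glia surround amyloid plaques with processes, matrix and phagocytic contacts, which takes cell adhesion proteins, secreted matrix and a remodelled actin cytoskeleton. CD9 is a tetraspanin that organises other membrane proteins, and ALCAM is an adhesion molecule of the immunoglobulin family that binds CD6 and itself. CACNA2D3 is an auxiliary alpha2delta subunit of voltage-gated calcium channels. ADAMTSL3 is a secreted glycoprotein related to the ADAMTS proteases without a protease domain, COL16A1 is a collagen that associates with fibrils, and COL27A1 is a fibrillar collagen. FMN1 is a formin, a nucleator of unbranched actin filaments, GAS7 is an F-BAR protein that links membranes to actin, and ERMARD is a membrane protein of the endoplasmic reticulum.

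All 9 are protein-coding genes on separate stretches of the mouse genome (mm10, GRCm38), and a count covers the whole gene, introns included where the pipeline counted them. The membrane genes are *Cd9* on chr6:125460266-125494791 (- strand), *Alcam* on chr16:52248996-52454074 (- strand) and *Cacna2d3* on chr14:28904943-29721864 (- strand). The matrix genes are *Adamtsl3* on chr7:82335694-82614450 (+ strand), *Col16a1* on chr4:130047840-130099283 (+ strand) and *Col27a1* on chr4:63214004-63334991 (+ strand). The cytoskeletal genes and *Ermard* are *Fmn1* on chr2:113327736-113716767 (+ strand), *Gas7* on chr11:67455437-67688990 (+ strand) and *Ermard* on chr17:15041208-15090044 (+ strand). Their lengths run from 34.5 kb for *Cd9* to 816.9 kb for *Cacna2d3*, so levels are compared here within a gene and never between genes. Genes on the opposite strand overlap some of them, and whether the counting used strand was not given in the sources used here. Counted separately, the largest count of such a partner in a glial type was 88 transcripts beside 615 of *Cd9* in OPCs (*Gm26728*) and 39 beside 4092 of *Gas7* in oligodendrocytes (*Glp2r*). It was 34 beside 1642 of *Fmn1* in oligodendrocytes (*Gm13963*), 20 beside 901 of *Ermard* in astrocytes (*Gm3448*) and 11 beside 3777 of *Cacna2d3* in astrocytes (*Lrtm1*).

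The windows just upstream of the start sites describe these genes outside the measurements. Of the 9 genes, 7 had an entry in the RefSeq promoter table (GRCm38.p6), and *Gas7* and *Ermard* had none. The 7 genes had 8 promoters since *Fmn1* had 2 starts, and the 250 bases before each start were searched on both strands. The GC box GGGCGG, the site of SP1-like factors, occurred in 7 of 8 windows and in 32.7% of all 32851 promoter windows of the same length. GC content ran from 44.4 to 80.0% against a median of 52.4% over all windows, and windows rich in G and C hold more GC boxes. The window without a GC box was that of the second *Fmn1* start, which had the 44.4%. No share was drawn up for windows of like GC content, so the GC box is not read as a feature shared beyond it. None of the 8 held the AP-1 letters TGANTCA (6.75% of all windows), the STAT letters TTCNNNGAA (7.02%), the E-box CACGTG (6.02%), the cAMP response element TGACGTCA (1.55%) or TATAAA (12.4%), which says only that these letters are not in these windows.
The windows of *Adamtsl3*, *Col16a1*, *Cd9* and *Fmn1* are printed 5′ to 3′ on the gene's strand, with GC boxes in capitals, because these genes stand for the matrix, membrane and cytoskeleton groups of the results. They span chr7:82335444-82335693 (+ strand) for *Adamtsl3*, chr4:130047590-130047839 (+ strand) for *Col16a1*, chr6:125494761-125495010 (- strand) for *Cd9* and chr2:113327486-113327735 (+ strand) for *Fmn1*, the first of its 2 starts.
Adamtsl3: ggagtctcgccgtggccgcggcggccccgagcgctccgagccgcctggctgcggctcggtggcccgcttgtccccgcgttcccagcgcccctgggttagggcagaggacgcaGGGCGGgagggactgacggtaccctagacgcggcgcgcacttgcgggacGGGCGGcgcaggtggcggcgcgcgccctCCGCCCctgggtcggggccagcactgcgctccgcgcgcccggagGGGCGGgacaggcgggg
Col16a1: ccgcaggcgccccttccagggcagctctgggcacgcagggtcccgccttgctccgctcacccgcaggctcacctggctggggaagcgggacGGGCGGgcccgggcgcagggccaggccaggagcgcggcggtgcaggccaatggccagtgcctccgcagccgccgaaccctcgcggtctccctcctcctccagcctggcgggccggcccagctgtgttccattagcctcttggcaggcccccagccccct
Cd9: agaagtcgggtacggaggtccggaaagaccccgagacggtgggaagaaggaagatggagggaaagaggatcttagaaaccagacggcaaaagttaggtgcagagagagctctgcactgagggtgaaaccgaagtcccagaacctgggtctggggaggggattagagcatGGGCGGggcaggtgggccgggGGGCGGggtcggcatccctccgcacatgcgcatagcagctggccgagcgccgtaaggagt
Fmn1: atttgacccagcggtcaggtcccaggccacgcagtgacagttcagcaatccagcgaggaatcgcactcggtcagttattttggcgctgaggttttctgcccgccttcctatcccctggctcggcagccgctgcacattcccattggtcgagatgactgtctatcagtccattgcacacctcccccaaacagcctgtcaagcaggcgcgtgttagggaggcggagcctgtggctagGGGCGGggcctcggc

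The tetraspanin gene *Cd9* had a higher median in Arctic than in WT glia of all 4 kinds and was nearly absent from neurons. Levels are CPM, the count of a gene in the summed nuclei of a type in a well, scaled to the same total of transcripts in every well, and log2 fold changes come from edgeR. The *Cd9* level in astrocytes was 0 to 28.6 CPM (median 24.7) in WT-veh, 15.6 to 32.9 CPM (median 24.6) in WT-PMX, 46.8 to 139.8 CPM (median 74.8) in Arc-veh and 61.1 to 80.8 CPM (median 65.5) in Arc-PMX wells. In astrocytes all Arctic wells lay above all WT wells under either treatment. Arc-veh wells held 378 to 890.2 CPM (median 485) of *Cd9* in microglia, against 121 to 261 CPM (median 143) in WT-veh wells. The Arc-PMX wells held 407 to 659.9 CPM (median 469) and the WT-PMX wells 119 to 255 CPM (median 138) (4, 5, 6 and 6 wells with at least 10 microglia). Here too the Arctic and WT wells did not overlap within a treatment, and microglia held the highest median *Cd9* level of the 5 types in every group. In oligodendrocytes the group medians were 83.4, 62.1, 153 and 147 CPM, and in OPCs they were 94.1, 115, 179 and 182 CPM. The Arc-veh and WT-veh wells overlapped in oligodendrocytes and in OPCs, and the Arc-PMX and WT-PMX wells overlapped in OPCs. The log2 fold change of Arc-veh over WT-veh was 1.72 ± 0.28 in astrocytes, 0.87 ± 0.23 in oligodendrocytes, 0.89 ± 0.24 in OPCs and 1.80 ± 0.37 in microglia, each ± SE from edgeR. The OPC value was 1.60 with nuclei named singly. Neurons had almost no *Cd9*, with group medians of 0.628 to 1.0 CPM, and a log2 difference of 0.13 ± 0.35.

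*Alcam* did not differ in one direction in all glia, being lower in Arctic astrocytes and higher in Arctic microglia. In astrocytes, *Alcam* ranged from 463 to 582 CPM (median 515) in WT-veh and from 239 to 321 CPM (median 277) in Arc-veh wells. On PMX205 the ranges were 335 to 490.0 CPM (median 439) in WT-PMX and 193 to 380.2 CPM (median 298) in Arc-PMX wells. The 6 Arc-veh wells were all below the 6 WT-veh wells in astrocytes, and the log2 fold change was -0.91 ± 0.12; under PMX205 the wells overlapped with a log2 fold change of -0.53 ± 0.12. The *Alcam* level in microglia was 0 to 60.8 CPM (median 22.2) in WT-veh, 0 to 163 CPM (median 28.4) in WT-PMX, 83.6 to 210.2 CPM (median 136) in Arc-veh and 134 to 209 CPM (median 172) in Arc-PMX wells. In microglia the Arc-veh wells all lay above the WT-veh wells, with a log2 fold change of 2.14 ± 0.77, while 1 WT-PMX well with 3 transcripts reached into the Arc-PMX range. In oligodendrocytes the log2 fold change of *Alcam* was -0.77 ± 0.19 with overlapping wells, and under PMX205 the value was -0.13 ± 0.18. OPCs had the highest median level of the 5 types in every group (medians 658, 564, 505 and 561 CPM) and a log2 fold change of -0.25 ± 0.14. The microglial values of *Alcam* were 0.27 on vehicle and 0.40 on PMX205 with nuclei named singly. Described as a group that is higher in Arctic glia, the 9 genes therefore had exceptions in *Alcam* and, in microglia and OPCs, in *Col27a1*.

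The calcium channel subunit *Cacna2d3* had its highest WT level in neurons, and among the 4 glial types its genotype difference was widest in astrocytes. Arc-veh wells held 374 to 565 CPM (median 454) of *Cacna2d3* in astrocytes, against 83.8 to 134 CPM (median 107) in WT-veh wells. The Arc-PMX wells held 389 to 534 CPM (median 442) and the WT-PMX wells 43.8 to 117 CPM (median 94.5). Arctic and WT astrocyte wells did not overlap under either treatment, and the log2 fold change was 2.01 ± 0.15 on vehicle and 2.21 ± 0.14 on PMX205. Neuron wells lay above those of Arctic astrocytes, with group medians of 1234, 1190.1, 1337 and 1215 CPM and a log2 fold change of 0.03 ± 0.09. Oligodendrocyte medians were 125, 148, 257 and 203 CPM, with a log2 fold change of 0.83 ± 0.18 on vehicle and 0.56 ± 0.17 on PMX205. In OPCs, where the medians were 441, 474, 627 and 562 CPM, the Arc-veh wells lay above all WT-veh wells and the log2 fold change was 0.57 ± 0.14, while on PMX205 the wells overlapped and it was 0.24 ± 0.14. With nuclei named singly the direction turned in oligodendrocytes, to -0.17 on vehicle and -0.18 on PMX205, and in OPCs on vehicle, to -0.15, while the astrocyte value on PMX205 was 1.16. Outside glia and neurons, the WT level was 576 ± 152 CPM in ependymal or choroid plexus (SD, n = 6 wells) and 507 ± 389.7 CPM in endothelial nuclei (SD, n = 7 wells). In microglia the gene did not pass the filter on low counts and its medians were 63.5, 17.2, 63.4 and 63.3 CPM. The share of astrocyte nuclei with a *Cacna2d3* transcript, after each nucleus was thinned to 500 transcripts, was 5.02 ± 0.85% in WT-veh, 4.02 ± 1.75% in WT-PMX, 16.7 ± 4.93% in Arc-veh and 17.3 ± 5.71% in Arc-PMX (SD, n = 6 wells each). In microglia, where few transcripts of the gene were found, the same shares were 2.19, 2.99, 2.59 and 2.35%. The median depths of the 2 types before thinning were 1770 and 1008 transcripts, and without thinning the astrocyte shares were 11.9, 13.8, 48.5 and 45.1%.

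The 3 matrix genes followed the same order in astrocytes. In astrocytes, *Adamtsl3* ranged from 10.9 to 27.7 CPM (median 22.7) in WT-veh and from 75.6 to 141 CPM (median 114) in Arc-veh wells. On PMX205 the ranges were 4.21 to 21.4 CPM (median 16.3) in WT-PMX and 55.3 to 145 CPM (median 107) in Arc-PMX wells. The Arctic wells lay above all WT wells under both treatments, with log2 fold changes of 2.32 ± 0.27 and 2.68 ± 0.27. The *Adamtsl3* level in oligodendrocytes was 0 to 21.5 CPM (median 2.84) in WT-veh, 4.83 to 20.9 CPM (median 13.6) in WT-PMX, 30.0 to 119 CPM (median 79.0) in Arc-veh and 50.5 to 109 CPM (median 88.4) in Arc-PMX wells. In oligodendrocytes too the Arctic and WT wells were apart under both treatments, with log2 fold changes of 3.46 ± 0.59 and 2.76 ± 0.42, although the WT-veh level rested on few transcripts and its well M2 was far above the others. The oligodendrocyte value on vehicle was 2.11 with nuclei named singly. In OPCs the medians were 55.7, 37.1, 124 and 122 CPM, the wells overlapped, and the log2 fold changes were 1.18 ± 0.31 and 1.75 ± 0.33. Microglia held 0, 0, 1 and 3 *Adamtsl3* transcripts in the 4 groups, and the neuron medians were 3.09, 3.07, 3.18 and 3.48 CPM.

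*Col16a1* was higher in Arctic mice in the same 3 types. Arc-veh wells held 81.6 to 197 CPM (median 118) of *Col16a1* in astrocytes, against 21.9 to 49.5 CPM (median 45.2) in WT-veh wells. The Arc-PMX wells held 78.3 to 212 CPM (median 124) and the WT-PMX wells 40.7 to 82.3 CPM (median 53.9). The Arc-veh wells were apart from the WT-veh wells, and on PMX205 the ranges overlapped. The log2 fold changes were 1.71 ± 0.24 and 1.03 ± 0.20 in astrocytes, 1.64 ± 0.32 and 1.30 ± 0.26 in oligodendrocytes, and 1.20 ± 0.32 and 1.67 ± 0.30 in OPCs, on vehicle and on PMX205. In OPCs, *Col16a1* ranged from 33.0 to 96.3 CPM (median 52.8) in WT-veh and from 104 to 134 CPM (median 123) in Arc-veh wells. On PMX205 the ranges were 6.51 to 83.3 CPM (median 65.8) in WT-PMX and 103 to 265 CPM (median 171) in Arc-PMX wells. In OPCs the Arctic and WT wells were apart under both treatments. Oligodendrocyte medians were 23.2, 39.3, 83.7 and 89.7 CPM, with overlapping wells. Microglia held 0, 0, 3 and 1 transcripts in the 4 groups, and neuron medians were 3.36, 4.41, 5.62 and 4.93 CPM, with log2 fold changes of 0.51 ± 0.31 and 0.36 ± 0.31.

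*Col27a1* was higher in Arctic astrocytes and oligodendrocytes and lower in Arctic microglia. The *Col27a1* level in astrocytes was 23.2 to 39.6 CPM (median 29.7) in WT-veh, 16.7 to 43.9 CPM (median 30.4) in WT-PMX, 111 to 195 CPM (median 148) in Arc-veh and 87.1 to 197 CPM (median 139.6) in Arc-PMX wells. No WT astrocyte well reached an Arctic one under either treatment, and the log2 fold changes were 2.27 ± 0.22 and 2.18 ± 0.21. Arc-veh wells held 233 to 385 CPM (median 282) of *Col27a1* in microglia, against 578 to 1087 CPM (median 616) in WT-veh wells. The Arc-PMX wells held 187 to 389.9 CPM (median 294) and the WT-PMX wells 272 to 874 CPM (median 483). In microglia, which had the highest median level of the 5 types in every group, the 6 Arc-veh wells were all below the 4 WT-veh wells; the log2 fold changes were -1.19 ± 0.24 and, with overlapping wells, -0.61 ± 0.26. Oligodendrocytes had medians of 28.1, 15.1, 65.0 and 88.9 CPM and log2 fold changes of 1.45 ± 0.34 and 2.71 ± 0.38. In OPCs the medians were 94.4, 67.0, 48.9 and 59.8 CPM with log2 values of -0.71 ± 0.34 and 0.27 ± 0.34, so the sign was not the same under the 2 treatments and the wells overlapped. With nuclei named singly, the values of *Col27a1* were 0.63 and 1.68 in oligodendrocytes on vehicle and on PMX205, -0.17 and 0.08 in microglia, and 0.19 in OPCs on vehicle, so the sign turned in microglia on PMX205 and in OPCs. In microglia on PMX205 the value was also -0.25 without a filter on low counts and -0.39 in nuclei with over 500 transcripts and genes.

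Both cytoskeletal genes had their widest genotype difference in microglia when types were taken from clusters. In microglia, *Fmn1* ranged from 0 to 152 CPM (median 11.1) in WT-veh and from 189.7 to 760.0 CPM (median 397) in Arc-veh wells. On PMX205 the ranges were 0 to 114 CPM (median 0) in WT-PMX and 402 to 562 CPM (median 475) in Arc-PMX wells. The Arctic and WT microglia did not overlap in *Fmn1* under either treatment, and the log2 fold changes were 3.01 ± 0.73 and 3.88 ± 0.80. The 4 WT-veh wells held 6 *Fmn1* transcripts, 5 of them in M1. With nuclei named singly, the microglial values were 1.10 and 0.63, the lowest of the alternatives. The highest were 5.01 on vehicle and 5.74 on PMX205. The *Fmn1* level in oligodendrocytes was 96.9 to 259 CPM (median 160.0) in WT-veh, 118 to 251 CPM (median 154) in WT-PMX, 307 to 416 CPM (median 352) in Arc-veh and 272 to 436 CPM (median 370.1) in Arc-PMX wells. Oligodendrocytes were apart under both treatments too, with log2 fold changes of 1.16 ± 0.17 and 1.14 ± 0.16. In OPCs the medians were 149.9, 168, 253 and 279 CPM and the log2 fold change on vehicle was 0.74 ± 0.17, with no overlap of wells, and on PMX205 0.63 ± 0.17, with overlap. The OPC call on vehicle held in 20 of 36 alternative settings and was lost without any 1 of 12 wells. Astrocytes had the lowest *Fmn1* level of the 4 glial types on the Arctic side (medians 12.3, 11.2, 32.9 and 44.3 CPM) and a log2 fold change of 1.58 ± 0.40, with overlapping wells. In neurons the medians were 159.9, 177, 185 and 169.9 CPM and the log2 fold change was 0.17 ± 0.07. Naming nuclei singly gave 0.27 on vehicle and 0.55 on PMX205 in astrocytes and 0.47 and 0.33 in OPCs.

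*Gas7* transcripts were few in WT microglia and many in Arctic ones when types were taken from clusters. Arc-veh wells held 219 to 440.4 CPM (median 408) of *Gas7* in microglia, against 0 to 60.4 CPM (median 37.4) in WT-veh wells. The Arc-PMX wells held 284 to 517 CPM (median 410.4) and the WT-PMX wells 0 to 59.3 CPM (median 0). In microglia the Arctic and WT wells were apart under both treatments. The WT-veh microglia held 4 *Gas7* transcripts in all and the WT-PMX microglia 2, against 340 in Arc-PMX, and the ratio of the Arc-PMX to the WT-PMX level was 28.5 (95% interval 7.82 to 236.0, counting error only). On vehicle the fitted log2 fold change was 3.47 ± 0.70. With nuclei named singly it was 0.13 on vehicle and 0.55 on PMX205, and *Gas7* was then not called. In oligodendrocytes, *Gas7* ranged from 173 to 629.6 CPM (median 579) in WT-veh and from 684 to 889.9 CPM (median 743) in Arc-veh wells. On PMX205 the ranges were 517 to 765 CPM (median 630.0) in WT-PMX and 606 to 1010.2 CPM (median 786) in Arc-PMX wells. Oligodendrocytes, where median *Gas7* was highest of the 5 types, had log2 fold changes of 0.52 ± 0.14 and 0.31 ± 0.13, and the Arc-veh wells were above all WT-veh wells, of which F3 lay far below the rest on 2 transcripts. In astrocytes the medians were 31.5, 31.6, 61.3 and 60.1 CPM with log2 fold changes of 0.96 ± 0.30 and 0.95 ± 0.27 and overlapping wells. In OPCs they were 71.4, 93.5, 127 and 219 CPM with log2 fold changes of 0.71 ± 0.31 and 1.28 ± 0.29, and the wells were apart on PMX205 only. Summed oligodendrocyte markers in these OPCs, given below, were also lowest in WT-veh and highest in Arc-PMX. Their part in the *Gas7* values was not tested. Naming nuclei singly gave 0.36 and 0.60 in astrocytes and 0.04 and 0.37 in OPCs. Without Arc-veh F2 the OPC value on vehicle was 0.41.

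*Ermard* had its widest genotype difference in OPCs. The *Ermard* level in OPCs was 14.2 to 57.9 CPM (median 30.2) in WT-veh, 19.5 to 61.2 CPM (median 40.0) in WT-PMX, 223 to 428 CPM (median 359) in Arc-veh and 277 to 742 CPM (median 427) in Arc-PMX wells. No WT OPC well reached an Arctic one, and the log2 fold change was 3.60 ± 0.36 on vehicle and 3.61 ± 0.31 on PMX205. After thinning to 500 transcripts, the OPC nuclei with an *Ermard* transcript were 1.98 ± 1.77% (WT-veh) and 0.51 ± 0.80% (WT-PMX) against 16.6 ± 2.85% (Arc-veh) and 19.8 ± 9.24% (Arc-PMX; SD, n = 6 wells each). The shares in neurons after thinning were 0.61, 0.76, 0.79 and 0.82%, from median depths of 8152 transcripts in neurons and 2425 in OPCs, and the unthinned OPC shares were 6.0, 11, 42.1 and 42.9%. The log2 fold changes were 1.05 ± 0.21 and 1.30 ± 0.21 in astrocytes (medians 42.0, 43.5, 93.1 and 108 CPM) and 1.41 ± 0.28 and 1.68 ± 0.28 in oligodendrocytes (medians 48.4, 28.2, 106 and 103 CPM). Oligodendrocyte wells were apart under both treatments and astrocyte wells on vehicle. In neurons the medians of 14.7, 16.1, 15.3 and 16.6 CPM differed little, with a log2 fold change of 0.03 ± 0.12, and in microglia the gene did not pass the filter on low counts.

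**Figure D1:**
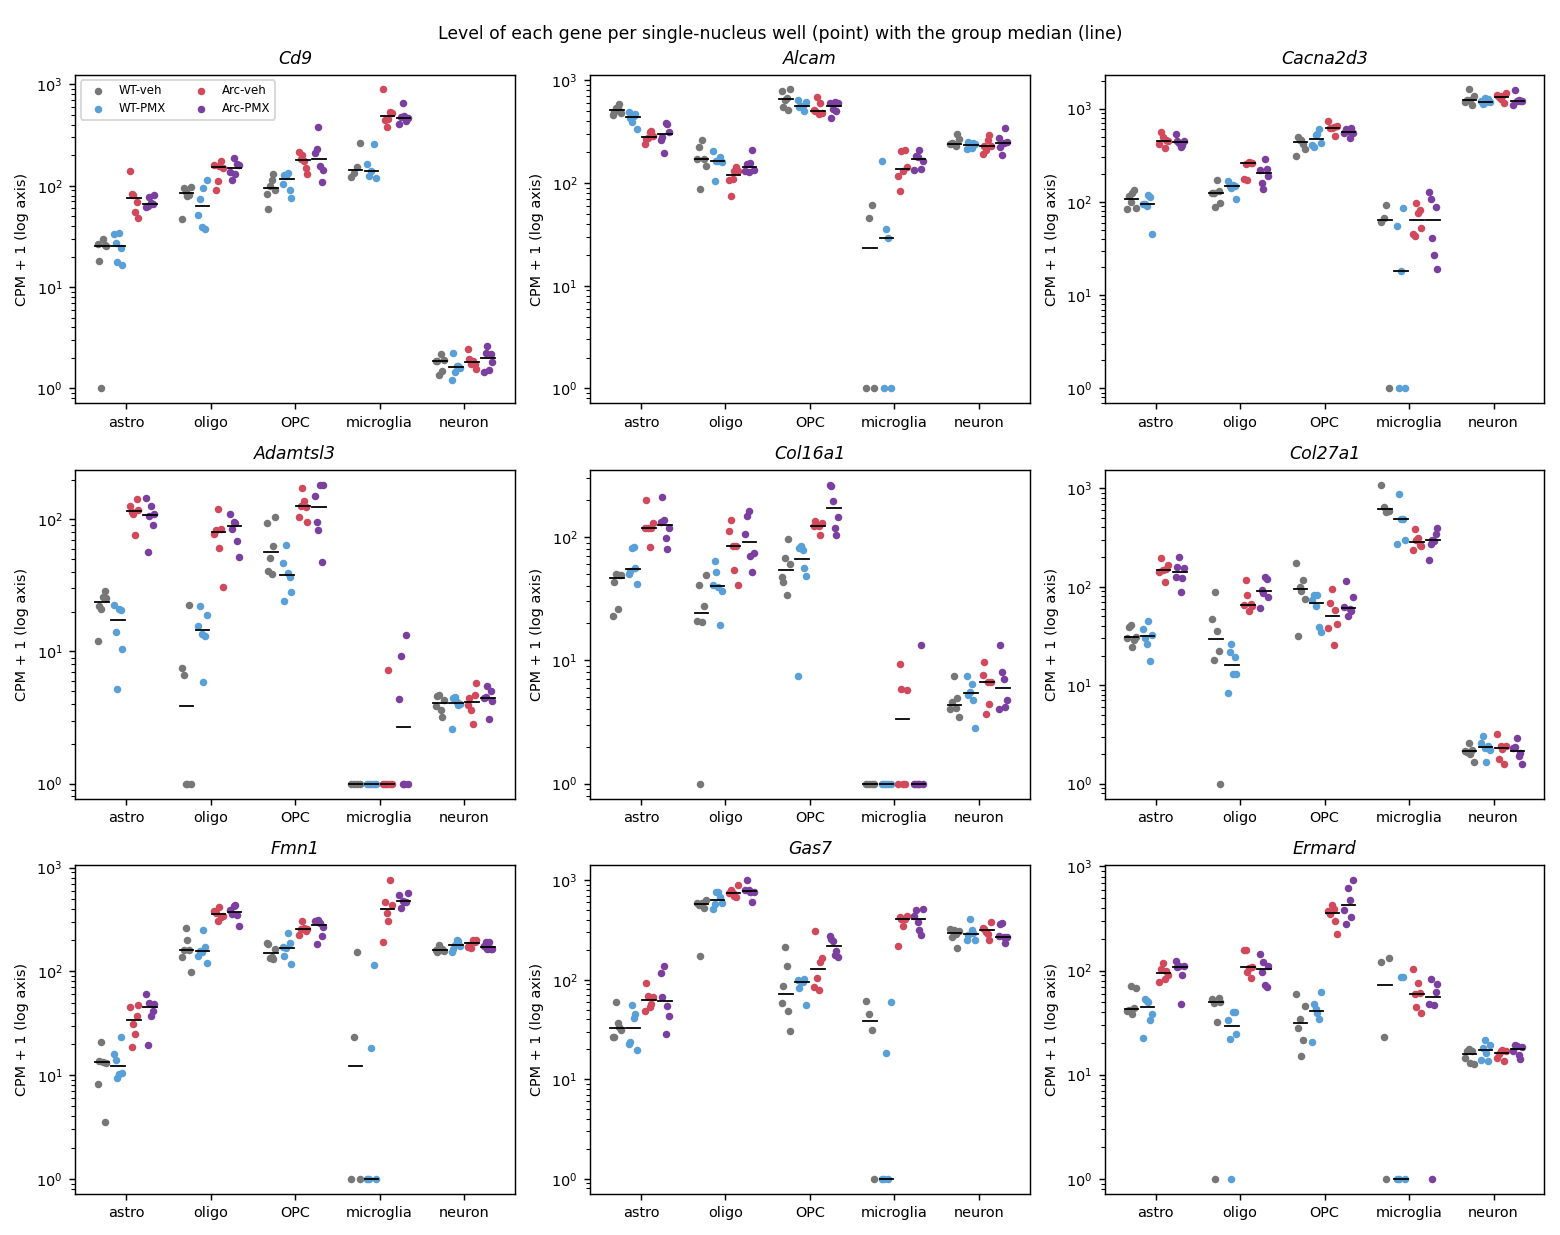
Level of each of the 9 genes (panels) in 5 types of nuclei (x axis), as CPM plus 1 on a log axis. Each point is 1 well, coloured by group, and each short line a group median; in astrocytes the *Cacna2d3* wells of Arctic mice sit at 374 to 565 CPM and those of WT mice at 43.8 to 134 CPM, while the neurons of all groups share 1 range.

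**Figure D2:**
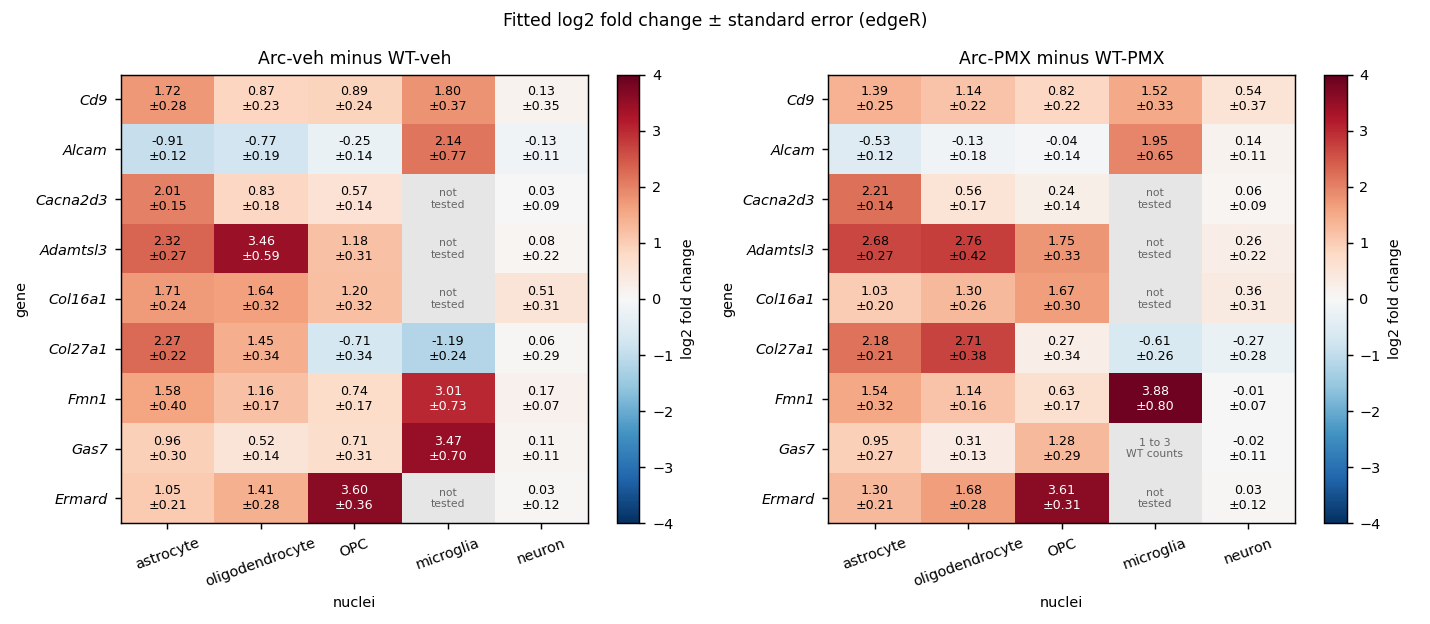
Genotype difference of each gene (rows) in 5 types of nuclei (columns), on vehicle and on PMX205, as edgeR log2 fold change ± SE (red, higher in Arctic; blue, lower). Grey cells were not tested or had 1 to 3 WT transcripts; the glial values below 0 on vehicle are those of *Alcam* in astrocytes (-0.91), oligodendrocytes (-0.77) and OPCs (-0.25) and of *Col27a1* in microglia (-1.19) and OPCs (-0.71).

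Counted over the 9 genes on vehicle, edgeR put 8 higher and 1 lower in astrocytes, where 7.56% of 7304 genes were called higher and 4.98% lower at an adjusted p under 0.05. The counts were 8 higher and 1 lower in oligodendrocytes (2.07% and 0.388% of 4636 genes), 2 and 0 in OPCs (0.434% and 0.0271% of 3687), 4 and 1 of the 5 tested in microglia (7.01% and 4.38% of 2239), and 0 and 0 in neurons (0.0472% and 0.0202% of 14836). On PMX205 they were 8 and 1 in astrocytes (7.64% and 3.6%), 6 and 0 in oligodendrocytes (1.49% and 0.237%), 4 and 0 in OPCs (0.57% and 0.0%), 4 and 0 of 5 in microglia (7.06% and 4.24%) and 0 and 0 in neurons (0.0135% and 0.0%). Without the wells WT-veh F3 and M3 the oligodendrocyte counts on vehicle were 8 and 1, and the OPC counts 1 and 0. Because this difference chose the genes, the counts describe them and support nothing. With nuclei named singly the counts on vehicle were 5 higher in oligodendrocytes and 2 higher and 0 lower in microglia, and those on PMX205 were 1 higher in OPCs and 1 in microglia. The shares over all genes are those of the main setting. In the alternatives, a loss in the 9 genes therefore cannot be told from a loss over all genes. In neurons 1187 genes had an unadjusted p under 0.05 on vehicle and 439 on PMX205. The median log2 fold change of the 9 genes on vehicle was 1.71 in astrocytes, 1.16 in oligodendrocytes, 0.74 in OPCs and 0.08 in neurons, against 0.01, 0.02, -0.01 and 0.01 over all genes tested. The OPC count on vehicle was 1 with the replicate block and without any 1 of 10 wells. By gene, *Fmn1* was called higher on vehicle in 4 glial types (OPCs in 20 of 36 settings), *Cd9*, *Gas7* and *Ermard* in 3, *Adamtsl3*, *Cacna2d3*, *Col16a1* and *Col27a1* in 2 and *Alcam* in 1. The wells did not overlap for 6 of 9 genes higher and 1 lower in astrocytes (4.82% and 1.99% of all genes), 4 of 9 in oligodendrocytes (1.25%), 4 of 9 in OPCs (0.651%) and 4 of 5 higher and 1 lower in microglia (7.15% and 5.76%). For neurons that count was 0 of 9 (0.256%). On PMX205 the wells were apart for 4 of 9 genes in astrocytes (4.23% of all genes), 5 of 9 in oligodendrocytes (1.23%), 3 of 9 in OPCs (0.461%), 3 of 5 in microglia (5.67%) and 0 of 9 in neurons (0.0809%), all of them higher.

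Markers of other cell types were found in these sums too. The summed microglial markers had group medians of 49.3 to 68.5 CPM in astrocytes, 46.3 to 52.8 CPM in oligodendrocytes and 26.9 to 39.4 CPM in OPCs, against 10664 to 14421 CPM in microglia. Summed OPC markers in oligodendrocytes had medians of 102, 119, 231 and 309 CPM, and summed oligodendrocyte markers in OPCs 939, 1603, 1502 and 2432 CPM. Before doublets were removed, the OPCs joined a cluster of 1312 nuclei with another of 164. The smaller cluster had *Bcas1*, *Enpp6* and *Gpr17* among its top genes, and *Enpp6* was also a top gene of an oligodendrocyte cluster. The share of the smaller cluster in each group, and its part in the OPC values, was not tested. Summed astrocyte markers in OPCs had medians of 5912, 5986, 5151 and 4726 CPM, and summed neuron markers there 870.0, 934, 1679 and 507 CPM. In astrocytes the pericyte markers had medians of 236, 306, 403 and 377 CPM and the fibroblast markers 279, 251, 107 and 117 CPM. The endothelial markers in microglia had medians of 124, 59.3, 304 and 453 CPM. The part of these transcripts in the values of the 9 genes was not tested. A CPM of a well is also a mean over its nuclei, so a change in all of them and a larger change in some of them cannot be told apart from it.

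CD11b-selected microglia, which took no part in the choice of the genes, asked whether the microglial differences appear in another preparation. Each preparation used only part of a mouse's hippocampi, and whether some mice gave tissue to both was not given in the sources used here. The cells may therefore not be independent of the nuclei that chose the genes. The p-values for genotype in cells are read with that limit. The WT wells held few transcripts of the genes that are higher in Arctic nuclei, 18 of *Gas7*, 15 of *Cd9* and 20 of *Fmn1* in all. The Arctic wells held 799, 720 and 630, but their sums were far deeper. All genes together gave 76277, 103022, 1533604 and 570571 transcripts in the 4 groups, so these counts do not compare levels. Mean levels in WT and Arctic wells were 51.9 and 330 CPM for *Gas7*, 122 and 288 CPM for *Cd9*, and 79.3 and 279 CPM for *Fmn1*. Each gene tested passed the filter on low counts through the genotype in which it is high. The results without that filter are therefore given too. At least 10 microglia were held by 3 and 3 WT wells and by 5 Arc-veh and 6 Arc-PMX wells. *Gas7* lay at 0, 0 and 280 CPM in the WT-veh wells, the last being F2, at 0, 0 and 31.4 CPM in the WT-PMX wells, from 235 to 449 CPM (median 356) in Arc-veh and from 198 to 468 CPM (median 335) in Arc-PMX. Apart from F2, no WT well reached an Arctic one. The WT-veh wells at 0 CPM held only 5463 (F3) and 10077 (M2) transcripts of all genes, so a 0 there says little. Over both treatments *Gas7* was higher in Arctic cells (adjusted p = 0.000134, edgeR quasi-likelihood test with Benjamini-Hochberg adjustment), and since WT-PMX held 1 transcript in all, the level ratio of Arc-PMX to WT-PMX is given in its place, 35.4 (95% interval 6.28 to 1400.0, counting error only).

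*Fmn1* lay at 0, 99.2 and 198 CPM in the WT-veh wells, at 31.4, 41.6 and 106 CPM in WT-PMX, from 0 to 446 CPM (median 289) in Arc-veh and from 175 to 386 CPM (median 311) in Arc-PMX. Its mean over Arctic groups exceeded that over WT groups by a log2 of 1.65 ± 0.43 (SE, adjusted p = 0.006175, edgeR). *Cd9* lay at 0, 65.9 and 366 CPM in WT-veh, at 42.5, 94.1 and 166 CPM in WT-PMX, from 154 to 465 CPM (median 267) in Arc-veh and from 177 to 409 CPM (median 289.7) in Arc-PMX, a log2 difference of 1.93 ± 0.48 (SE, adjusted p = 0.003856, edgeR). The wells of the 2 genotypes overlapped in *Fmn1* and *Cd9* on vehicle and were apart on PMX205. *Col27a1*, lower in Arctic microglial nuclei, was lower in the cells too, by a log2 of -1.02 ± 0.21 (SE, adjusted p = 0.002844, edgeR), with 366, 379 and 695 CPM in WT-veh, 594, 596 and 624 CPM in WT-PMX, 176 to 392 CPM (median 199) in Arc-veh and 165 to 354 CPM (median 247) in Arc-PMX. Over all 986 genes 6.9% were called higher and 5.07% lower. Without the filter on low counts, *Gas7*, *Cd9* (2.20) and *Fmn1* (1.93) were called higher as well, and *Col27a1* was -0.71 and no longer called. The other 5 did not pass the filter on low counts. *Alcam* had 4, 1, 205 and 59 transcripts in the 4 groups, whose totals differ as given above. Its mean level was 14.5 CPM in WT and 122 CPM in Arctic wells. Without the well WT-veh F2 the *Cd9* difference was 1.61 and no longer called, while *Gas7*, *Fmn1* (2.40) and *Col27a1* (-1.17) were called.

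Between the vehicle groups alone, with 3 WT-veh wells, none of the 4 was called with or without the filter, with log2 differences of 2.21 ± 0.74 for *Cd9*, 1.11 ± 0.49 for *Gas7*, 1.03 ± 0.55 for *Fmn1* and -0.84 ± 0.33 for *Col27a1* (SE, edgeR adjusted p = 0.1861 to 0.4693). No gene was called in that contrast, and 106 of 986 had an unadjusted p under 0.05. Between the PMX205 groups *Fmn1* (2.27 ± 0.66, adjusted p = 0.009042) and *Col27a1* (-1.21 ± 0.27, adjusted p = 0.004888) were called by edgeR, and *Cd9* was not (1.65 ± 0.62, adjusted p = 0.05132), with 6.8% of genes called higher and 6.49% lower. Without the filter *Fmn1* was called (2.51), and *Cd9* (1.90) and *Col27a1* (-0.95) were not. *Cd9* remained without a call in 16 of 24 settings and was called without any 1 of 6 wells (Arc-veh F1, F2 or F3, Arc-PMX F2 or M2, or WT-veh M2). Without the well WT-PMX F2 the *Fmn1* difference was 1.90 and no longer called. Without WT-veh F2 the other WT-veh wells held 0 *Gas7* transcripts, so no fold is given, and *Gas7* on vehicle was still not called. Without it the *Fmn1* difference on vehicle was 2.54, not called.

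**Figure D3:**
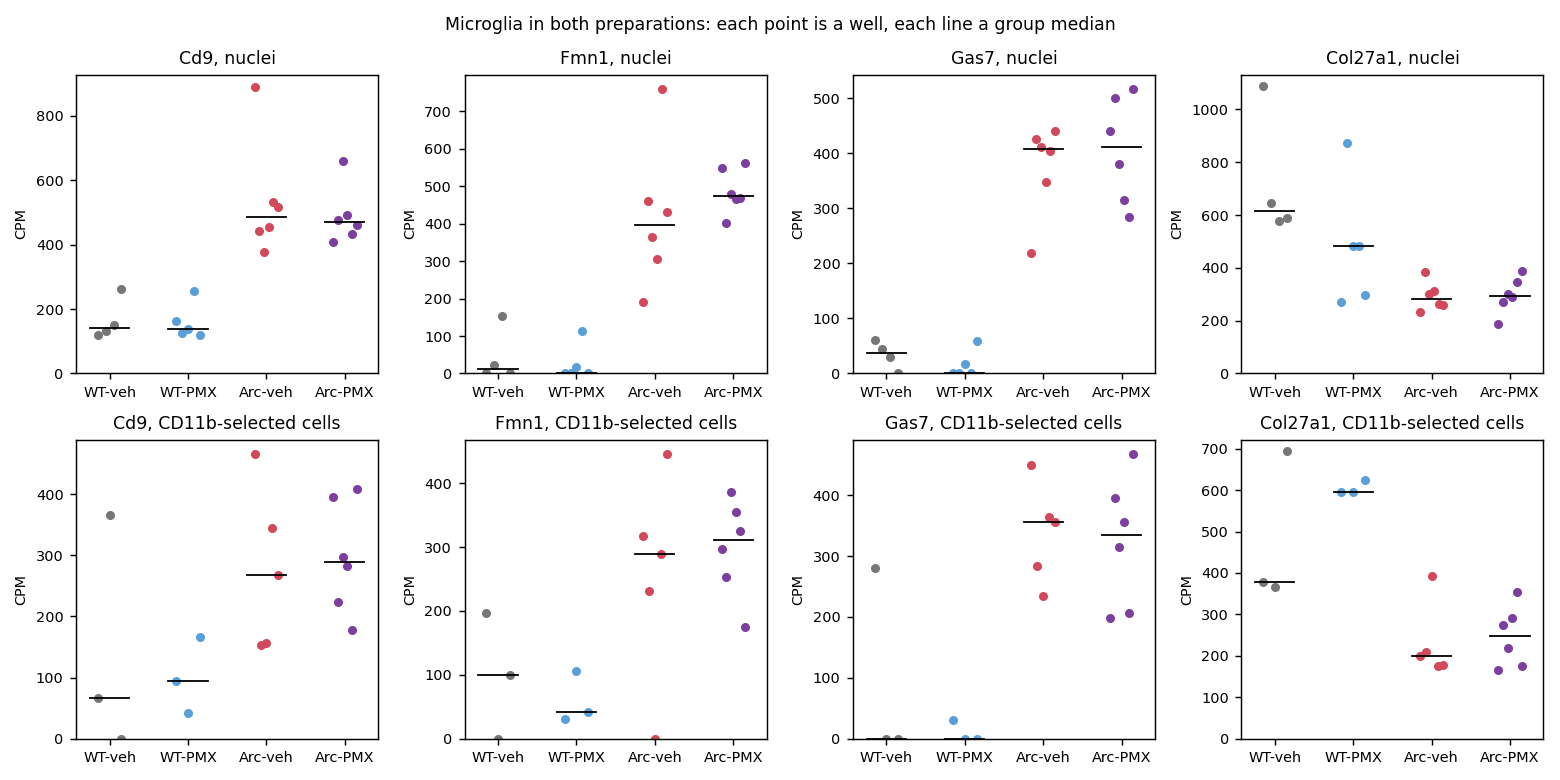
*Cd9*, *Fmn1*, *Gas7* and *Col27a1* in microglia by group, in CPM, for nuclei (upper panels) and CD11b-selected cells (lower panels). Each point is 1 well and each line a group median; the WT-veh point at 280 CPM of *Gas7* in cells is F2, and the other WT wells lie at or below 60.4 CPM in both preparations.

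Within Arctic mice, nuclei were next split by a gene other than the 9, to ask whether the 9 genes differ between nuclei of the same well. Astrocytes, oligodendrocytes and OPCs were split by a transcript of *C4b*, a complement component that glia raise around amyloid, and microglia by a transcript of any of *Itgax*, *Cst7*, *Clec7a*, *Spp1*, *Lpl* and *Axl*, genes of plaque-associated microglia. Both sides were summed in each of the 12 Arctic wells and compared by an exact sign permutation test on log2(CPM + 10), whose smallest p is 0.000488, with Benjamini-Hochberg adjustment over 36 comparisons. Nuclei on the positive side were deeper, with median transcripts of 2760 against 2007 in astrocytes, 1365 against 1037 in oligodendrocytes, 3260 against 3104 in OPCs and 1154 against 939 in microglia, so each comparison was repeated with every nucleus thinned to 500 transcripts. Of the 36 comparisons, 12 passed both ways, 10 passed only with all transcripts and 14 passed neither. Thinning also cut the counts, for *Fmn1* in astrocytes from 234 and 32 transcripts on the 2 sides to 28 and 7. Among the astrocyte genes that lost the call, the difference grew for *Fmn1*, *Col16a1* and *Ermard* and shrank for *Col27a1* and *Alcam*. A call lost after thinning is therefore not read as an effect of depth. The side of a nucleus was set before thinning, so it can still depend on depth. The share of all genes that differ in this split was not drawn up, so these counts are not read as particular to the 9 genes. *C4b* was itself called higher on vehicle in the 3 types that it splits, and the nuclei are among those that chose the genes. A difference in the split is therefore no independent support for the genotype difference. Of the 14 that passed neither, *Adamtsl3* and *Col16a1* in microglia held 4 transcripts each and 0 after thinning, so they could not have passed.

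In OPCs with *C4b*, *Ermard* stood at 630 ± 272 CPM against 204 ± 138 CPM in those without (SD, n = 12 wells), higher in 11 of 12 wells (log2 difference 1.90, exact permutation adjusted p = 0.003196), and the difference was 2.08 after thinning. *Col16a1* (1.26, and 2.25 thinned) and *Fmn1* (1.12, and 1.61 thinned) passed both ways in OPCs. *Cd9* (0.54, and 0.37 thinned) and *Adamtsl3* (0.53, and -0.33 thinned) passed neither way there. Oligodendrocytes with *C4b* had more *Adamtsl3* (102 ± 31.0 against 33.9 ± 22.8 CPM, SD, n = 12 wells, 12 of 12 wells), *Col27a1* (105 ± 39.7 against 40.7 ± 23.8 CPM), *Fmn1* (412 ± 63.7 against 251 ± 112 CPM) and *Ermard* (137 ± 42.6 against 58.2 ± 34.8 CPM), all of them also after thinning. *Col16a1* in oligodendrocytes (1.10, 0.87 thinned) and *Cacna2d3* in OPCs (0.69, 0.25 thinned) passed only with all transcripts. For *Gas7* in oligodendrocytes, the type with its highest level of the 5 main ones, the 2 sides had 770 ± 130 and 742 ± 162 CPM and a log2 difference of 0.07 (exact permutation adjusted p = 0.5791). *Gas7* in OPCs had 110.3 ± 67.7 CPM with *C4b* and 249 ± 199.6 CPM without, higher in 4 of 12 wells (log2 difference -0.78, -0.83 thinned, exact permutation adjusted p = 0.301), beside genotype values above 0. *Col27a1* in OPCs had 45.6 ± 38.1 and 72.8 ± 38.2 CPM (log2 difference -0.79, exact permutation adjusted p = 0.1547).

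Astrocytes with *C4b* had more *Cacna2d3* (496 ± 47.1 against 269 ± 109 CPM, SD, n = 12 wells, 12 of 12 wells) and more *Adamtsl3* (120 ± 28.7 against 66.4 ± 48.5 CPM, 9 of 12 wells) in both analyses. *Col27a1* (12 of 12 wells), *Col16a1*, *Fmn1* and *Ermard* were higher with all transcripts and did not pass after thinning, where their log2 differences lay between 0.78 and 1.26. *Cd9* (0.69) and *Gas7* (0.56) passed neither way (exact permutation adjusted p = 0.06343 and 0.1218 with all transcripts). *Alcam*, lower in Arctic astrocytes, was also lower on the *C4b* side, at 259 ± 51.5 against 401 ± 84.3 CPM in 12 of 12 wells (log2 difference -0.62, exact permutation adjusted p = 0.002511), and at -0.47 it missed the threshold after thinning (adjusted p = 0.07852).

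In microglia with a plaque-response transcript, *Gas7* stood at 522 ± 85.2 against 202 ± 109 CPM (SD, n = 12 wells) and was higher in 12 of 12 wells (log2 difference 1.56, 1.40 thinned). *Fmn1* stood at 565 ± 198 against 277 ± 124 CPM (1.04, 0.82 thinned) and *Alcam* at 224 ± 90.6 against 78.2 ± 74.8 CPM (1.94, 2.19 thinned), both called in either analysis. *Cd9* (558 ± 103 against 436 ± 206 CPM) and, in the lower direction, *Col27a1* (232 ± 77.2 against 392 ± 98.7 CPM) passed only with all transcripts, as did *Cacna2d3* (0.85, 0.13 thinned).

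**Figure D4:**
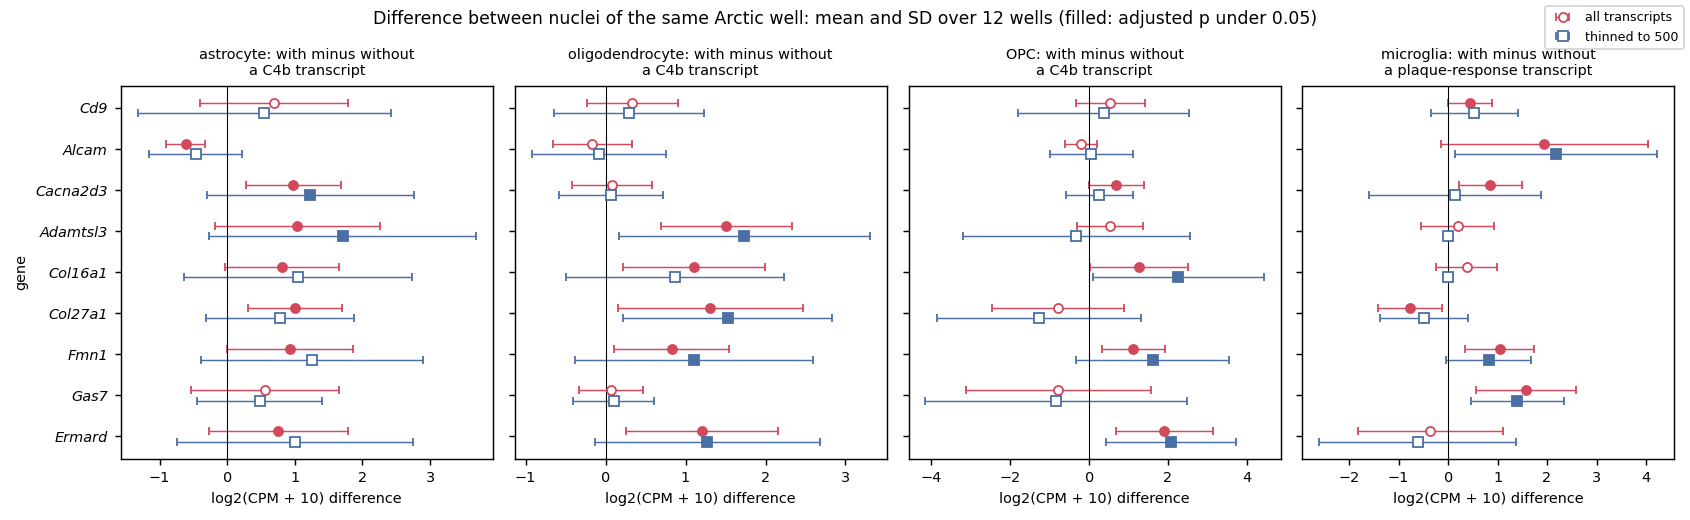
Difference within Arctic wells between nuclei with and without the split gene, as mean log2 difference of CPM + 10 over 12 wells with the SD as error bar, for each gene and 4 glial types. The 2 marks per gene are all transcripts and nuclei thinned to 500 transcripts, and filled marks had an adjusted p under 0.05; *Ermard* in OPCs (1.90 and 2.08) and *Gas7* in microglia (1.56 and 1.40) are filled for both.

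The effect of PMX205 asks whether blocking C5aR1 changed these genes; its contrasts share their vehicle wells with the differences that chose the genes. In Arctic nuclei none of 41 gene and type pairs was called (smallest adjusted p = 0.9991, edgeR), 2 had an unadjusted p under 0.05, and 39 of 41 95% intervals included 0. The log2 difference of Arc-PMX from Arc-veh ran from -0.17 (*Cacna2d3* in OPCs) to 0.55 (*Col16a1* in OPCs), and 38 of 41 intervals lay within 1 log2 unit of 0. Both pairs with an unadjusted p under 0.05 were positive, *Alcam* in oligodendrocytes at 0.36 ± 0.18 and *Col16a1* in OPCs at 0.55 ± 0.25 (SE). *Ermard* in OPCs differed by 0.42 ± 0.21 (95% interval -0.01 to 0.84), *Cacna2d3* in astrocytes by -0.04 ± 0.12 (-0.29 to 0.21) and *Gas7* in microglia by 0.09 ± 0.18 (-0.28 to 0.46). In Arctic CD11b-selected cells the differences were -0.27 ± 0.29 for *Cd9*, -0.25 ± 0.26 for *Gas7*, 0.04 ± 0.28 for *Fmn1* and 0.18 ± 0.23 for *Col27a1*, and none was called, nor was any of 986 genes (0.0%, 94 with an unadjusted p under 0.05). Over all genes PMX205 gave 1 call in Arctic astrocytes (0.0137%, lower), 1 in oligodendrocytes (0.0216%, lower) and 0 in OPCs, microglia and neurons, where 172, 35 and 295 genes had an unadjusted p under 0.05.

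In WT nuclei 0 of 41 pairs were called (smallest adjusted p = 0.8942, edgeR) and 4 had an unadjusted p under 0.05, of which *Alcam* in astrocytes (-0.29 ± 0.12), *Col27a1* in oligodendrocytes (-0.98 ± 0.45) and *Col27a1* in microglia (-0.61 ± 0.30) had negative and *Col16a1* in astrocytes (0.68 ± 0.26, SE) a positive value. No gene at all was called for PMX205 in WT nuclei (0.0%), with 319, 181, 145, 115 and 484 at an unadjusted p under 0.05 in astrocytes, oligodendrocytes, OPCs, microglia and neurons. Intervals were wider here, and 25 of 41 lay within 1 log2 unit of 0. The WT-PMX to WT-veh level ratio of *Gas7* in microglia was 0.402 (95% interval 0.0364 to 2.81, counting error only) from 2 and 4 transcripts. In CD11b-selected WT cells, where 17 of 18 *Gas7* transcripts came from WT-veh F2, the WT-PMX to WT-veh level ratio of *Gas7* was 0.0436 (95% interval 0.00104 to 0.278, counting error only, which leaves out the spread between wells). None of the 4 genes was called by edgeR, and 94 of 986 genes had an unadjusted p under 0.05 with 0 called. The difference between the effects in Arctic and WT mice was called for 0 of 41 pairs in nuclei (smallest adjusted p = 0.9851, 4 with an unadjusted p under 0.05) and 0 of 4 genes in cells (smallest adjusted p = 0.275, edgeR). Over all genes it was called for none in any of these types or in cells (0.0%), and 258, 128, 123, 102 and 443 genes in the 5 types and 98 in cells had an unadjusted p under 0.05.

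**Figure D5:**
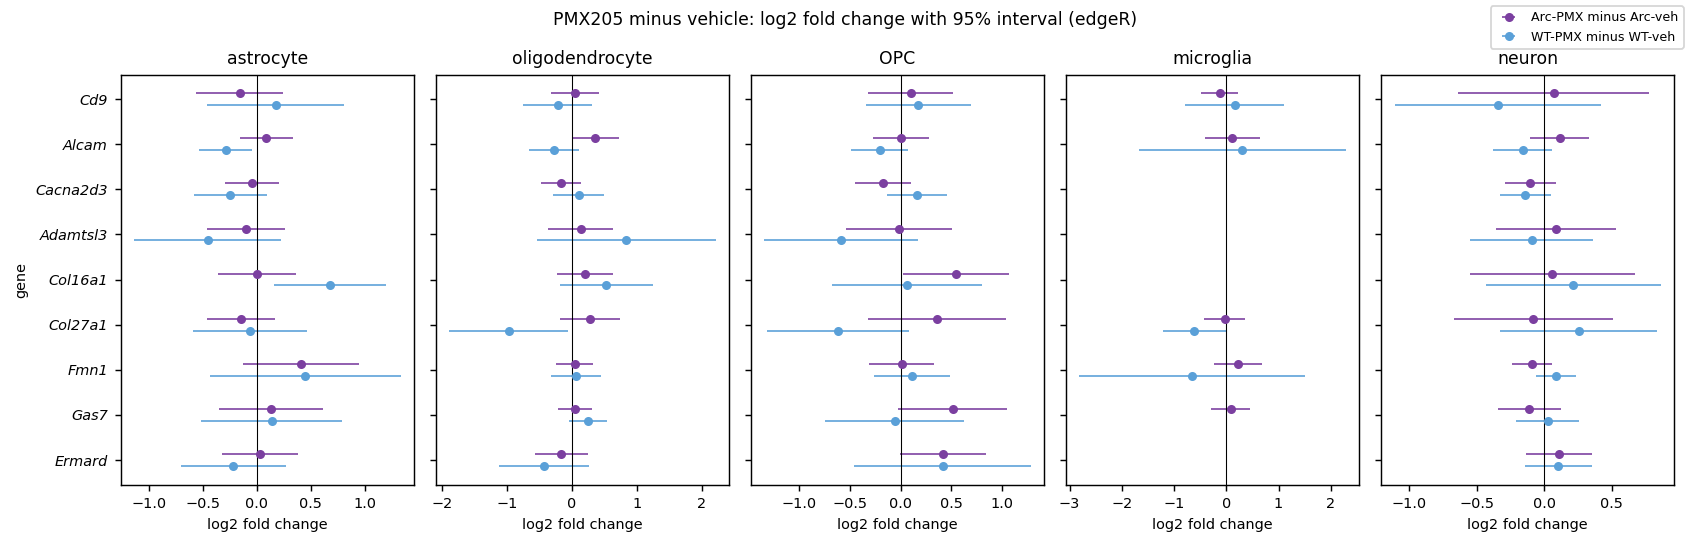
PMX205 minus vehicle for each gene in 5 types of nuclei, as edgeR log2 fold change with its 95% interval, in Arctic and in WT mice. Of the Arctic intervals 39 of 41 cross 0; *Gas7* in WT microglia, with 2 and 4 transcripts, is not drawn.

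Females and males were compared over all groups. Of 41 pairs in nuclei, 1 was called, *Col16a1* in oligodendrocytes, higher in females by a log2 of 0.82 ± 0.18 (SE, adjusted p = 0.03061, edgeR), a type in which 0.0647% of genes were called higher in females and 0.0863% lower. Those shares were 0.0958% and 0.0548% in astrocytes, 0.0271% and 0.0814% in OPCs, 0.0447% and 0.0893% in microglia and 0.0539% and 0.027% in neurons. The call of *Col16a1* held in only 19 of 33 alternative settings, and those that lost it are listed in the closing section. In all, 10 of the 41 pairs had an unadjusted p under 0.05, as did 694 of 7304 genes in astrocytes, 312 of 4636 in oligodendrocytes, 228 of 3687 in OPCs, 142 of 2239 in microglia and 2309 of 14836 in neurons. The values ran down to -0.32 for *Fmn1* in microglia. None of the 4 genes was called in cells, where the differences ran from -0.08 to 0.18 and 0.101% of genes were called higher and 0.0% lower.

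Vascular, fibroblast and ependymal or choroid plexus nuclei, which the choice of genes did not use, gave no call between the mean Arctic and mean WT level. Enough counts for a test were held by 2 of 9 genes in endothelial, 2 in pericyte, 5 in fibroblast and 6 in ependymal nuclei, with smallest adjusted p of 0.9993, 0.7123, 0.3246 and 0.9354 (edgeR). No gene at all was called in these types, while 35, 45, 188 and 282 had an unadjusted p under 0.05. The widest values were 1.90 ± 0.75 for *Col27a1* in pericytes and 1.24 ± 0.43 for *Fmn1* in fibroblasts (SE).

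The genes with the pattern most like that of the 9, by the number of glial types with a call higher on vehicle and then the mean log2 fold change, were *AY036118*, *Pvt1*, *C4b*, *Csf1*, *Nlrc5*, *Skap2*, *Bcl3*, *Mamdc2*, *Piezo2*, *Gcnt2*, *Gpnmb* and *Aldh1l2*. The mean used for this order was of values shrunk with edgeR's prior count, whereas the values printed here are without a prior. *Pvt1*, a long non-coding RNA, was called in 4 glial types, with log2 fold changes of 2.42 in astrocytes, 0.81 in oligodendrocytes, 1.49 in OPCs and 0.83 in microglia. *C4b* was called in 3 types, with 2.40 in astrocytes, 4.04 in oligodendrocytes and 5.06 in OPCs. *Nlrc5*, a regulator of MHC class I genes, was called in 3 (2.83 in astrocytes, 3.37 in oligodendrocytes, 1.83 in microglia). *Skap2*, an adaptor protein of immune cells, was called in 3 too (0.83 in astrocytes, 0.72 in oligodendrocytes, 0.76 in microglia). *AY036118*, a transcript that overlaps ribosomal RNA sequence, stood at 3.12 to 3.45 in all 4 glial types and at 3.10 in neurons, where it was not called. Of the genes tested in enough types, 753 of 8196 were called higher in at least 1 glial type on vehicle, 55 of 4995 in at least 2, 10 of 3119 in at least 3 and 3 of 1556 in 4. These counts include the 9 genes themselves. *Fmn1* is among the 3 called in 4 types, and *Fmn1*, *Cd9*, *Gas7* and *Ermard* are among the 10 called in at least 3. *Gfap*, the intermediate filament of reactive astrocytes, had a log2 fold change of 3.15 in astrocytes and of 2.52 in neurons, and was called higher in both. The part of astrocyte transcripts in the neuron sums was not tested.

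Relatives of the 9 genes were counted from lists, without the 9 themselves. Over all genes, 7.56% were called higher and 4.98% lower in astrocytes, 2.07% and 0.388% in oligodendrocytes, 0.434% and 0.0271% in OPCs, and 7.01% and 4.38% in microglia. Of 11 other collagens tested in astrocytes, 5 were called higher on vehicle, *Col5a3* (2.76), *Col4a6* (2.23), *Col11a1* (1.46), *Col5a2* (1.13) and *Col4a5* (0.77), and 0 lower. In oligodendrocytes 2 of 3 were called higher, *Col23a1* (2.22) and *Col13a1*, and in OPCs 0 of 5. Among ADAMTS-like proteins, *Adamtsl4* was called higher in astrocytes (3.47, 1 of 3 tested), and *Adamtsl4* (1.08) and *Adamtsl1* (0.61) in oligodendrocytes (2 of 3). Of 5 adhesion molecules of the immunoglobulin family in astrocytes, *Chl1* (2.76), *Nfasc* (1.57) and *Ncam2* (0.65) were called higher, opposite in sign to *Alcam*.

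The calls on vehicle in the other families are read against the same shares. Among alpha2delta subunits *Cacna2d2* was called lower in astrocytes (-0.96, 1 of 2 tested). *Tspan7* (-0.66) and *Tspan9* (-0.47) were called lower of 10 other tetraspanins in astrocytes, and *Upk1b* (-1.95) lower of 7 in microglia. Of 5 partners of CD9 in astrocytes, *Igsf8* was called lower (-0.53). Of 9 other formins in astrocytes, *Daam2* was called higher (0.38). Of 8 other F-BAR genes in microglia, *Pacsin1* (1.33) was called higher and *Fer* (-1.45) and *Srgap2* (-0.79) lower. None of the relatives was called for PMX205 in Arctic or in WT nuclei.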

How the data were processed

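RNA was measured by split-pool barcoding (Parse Evercode) in 7 sublibraries that share 48 first-round wells. The deposited counts, which the authors made per barcode and gene with split-pipe on mm10 after bcl2fastq, are transcripts without normalization or a filter on cells, and a sample sheet gave group and sex per well; whether the counting used strand was not given in the sources used here. Filters followed the study (over 300 and under 50000 transcripts; cells under 10% mitochondrial transcripts and over 300 genes; nuclei under 1% and over 400 genes), and Scrublet removed doublets at a score above 0.25 (1253 nuclei, 8 cells). That is 0.21% of the cells, so doublets may remain there. Each preparation was clustered (scanpy 1.11.5, 2000 variable genes, 30 components, 15 neighbours, Leiden resolution 1 for cells and 1.5 for nuclei). A cluster took the type with the highest mean marker score, of those with 3 or more markers each held by 10% of its cells. It stayed unnamed where that score was not positive, a second type came close or most of its cells were doublets. The same held where its top genes marked another type, its neuron marker counts exceeded its own, or a shallow cluster lacked own markers among its top genes. Clusters of cells were also left unnamed where most top genes were far higher in nuclei of another type. In all, 5922 nuclei stayed unnamed.

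Counts were summed per well and type (wells with at least 10 cells) and tested with edgeR 4.0.16 in R 4.3.3 (TMM, filterByExpr by group, glmQLFit and glmQLFTest, 4 groups in one fit, sex as a term), with Benjamini-Hochberg adjustment at 0.05 over all genes of a type and contrast. SE are Wald errors of the coefficients without a prior. P-values measure the spread between wells, which are separate mice (SN) or pools (SC). Levels with 1 to 3 transcripts in a group are given as ratios with an exact 95% interval, which covers counting error only. The test was tried on simulated counts for Arc-veh against WT-veh, where it found 76.5% of 2-fold changes in astrocytes (7125 genes), 46.8% in microglial nuclei (2135 genes) and 39% in CD11b-selected microglia (775 genes). In OPCs it found 68.8%. At an adjusted p under 0.05, false calls made up 8.77% of calls in OPCs, 6.59% in neurons and 6.04% in astrocytes. Their part was 3.73% in microglial nuclei, 3.49% in oligodendrocytes and 3.36% in CD11b-selected microglia. The members, the family lists, the markers and the tests were chosen with earlier results of these data known. Named genes are the 9 members, the 12 genes called higher on vehicle in the most glial types, and the called members of the family lists. Alternatives were DESeq2 1.42.0, its size factors, no filter on low counts, no covariate, only the groups compared, each well left out, doublets kept, over 500 transcripts and genes, transcripts linked to ribosomal RNA removed, a type given by the highest marker score, at least 20 nuclei per well and the replicate number as a block; leaving out 3 doubted wells was added after seeing the data.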

Additional observations from a re-analysis of the deposited data

Results flagged for a closer look

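Of 172 groups of 4 to 6 wells of a gene in a type, 16 held 1 well farther from the others than Dixon's 95% limit, and chance alone flags about 1 group in 20. None was explained here, and the cause was not tested.

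In microglial nuclei *Cd9* lay at 890.186 CPM in the Arc-veh well F1 (other wells 377.753 to 533.609) and at 659.921 CPM in the Arc-PMX well F3 (others 407.491 to 490.896). The same Arc-veh well F1 was high for *Cd9* in astrocytes, at 139.8 CPM (others 46.814 to 80.973). *Col27a1* lay at 1087.285 CPM in microglia of WT-veh F1 (others 577.894 to 644.459) on 18 transcripts, and at 391.85 CPM in CD11b-selected microglia of Arc-veh F3 (others 175.692 to 209.457) on 5. Few transcripts also stood behind *Fmn1* in microglia of WT-veh M1, 152.077 CPM from 5 (others 0 to 22.223), *Fmn1* in WT-PMX M2, 113.552 CPM from 4 (others 0 to 17.242), and *Alcam* in WT-PMX F1, 163.399 CPM from 3 (others 0 to 34.484).

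*Gas7* in OPCs of Arc-veh F2 lay at 311.087 CPM on 65 transcripts (others 78.082 to 164.284), and in astrocytes of WT-veh F3 at 59.394 CPM on 6 (others 25.512 to 35.711). In oligodendrocytes of WT-veh F3, a well with 14 such nuclei, *Gas7* lay at 172.861 CPM on 2 transcripts (others 531.002 to 629.57). *Adamtsl3* in oligodendrocytes of WT-veh M2 lay at 21.455 CPM on 4 transcripts (others 0 to 6.555). *Alcam* in oligodendrocytes of Arc-PMX M2 lay at 209.559 CPM (others 127.669 to 154.319).

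In neurons, *Adamtsl3* was low in WT-PMX F1, at 1.589 CPM (others 2.956 to 3.493). *Col16a1* was high in neurons of WT-veh F3, at 6.49 CPM (others 2.439 to 3.916), and *Cacna2d3* in those of Arc-PMX F2, at 1573.901 CPM (others 1081.511 to 1224.044).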

How the results depend on the processing

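Counts are numbers of the 9 genes called by edgeR at an adjusted p under 0.05. Shares over all genes are not given for these alternatives, so a loss in the 9 genes cannot be told from a loss over all genes. When each nucleus took the type of its highest marker score, calls higher on vehicle went from 8 to 5 in oligodendrocytes and from 4 to 2 in microglia, those lower in microglia from 1 to 0, calls higher on PMX205 from 4 to 1 in OPCs and from 4 to 1 in microglia, and the female excess of *Col16a1* in oligodendrocytes was lost (1 to 0); *Cacna2d3* in oligodendrocytes then reversed, from 0.83 to -0.17 on vehicle and from 0.56 to -0.18 on PMX205, and in OPCs from 0.57 to -0.15. In microglia *Gas7* then went from 3.47 to 0.13, *Alcam* from 2.14 to 0.27 and *Fmn1* from 3.01 to 1.10 on vehicle, and *Fmn1* on PMX205 from 3.88 to 0.63. Without a filter on low counts, which tests more genes, the calls lower on vehicle in oligodendrocytes and in microglia, the call higher in females in oligodendrocytes, and the call lower in CD11b-selected microglia on PMX205 and over both treatments each went from 1 to 0, and 1 gene was called lower in females in neurons against 0. Over 500 transcripts and genes, the female call in oligodendrocytes was 0. In OPCs, calls higher on vehicle went from 2 to 1 with the replicate block, and to 1 without the wells WT-veh F3 and M3. Deviations of wells with the same number had median correlations of 0.02 to 0.09 in the types. In neurons the correlation reached 0.42 and was over 0.1 in 16 of 36 pairs. Wells with different numbers were not set beside them, so whether the numbers pair the mice was not tested. The block changed no other count by over 1.5 times. Of all settings and counts, 2364 were within 1.5 times of the reported count, 38 were lower and 2 higher; the cause was not tested.

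Leaving out each well in turn gave the following ranges. Calls higher on vehicle were 1 to 3 in OPCs (moved by WT-veh F1, M1, F3 and M3, Arc-veh M1, F2, F3 and M3, and Arc-PMX M1 and M3), 7 to 8 in astrocytes, 6 to 8 in oligodendrocytes and 3 to 4 in microglia, and calls lower in oligodendrocytes were 0 to 1 (lost without WT-veh M1 or F2). On PMX205, calls higher were 7 to 8 in astrocytes, 6 to 7 in oligodendrocytes, 3 to 5 in OPCs and 3 to 4 in microglia. The female call of *Col16a1* in oligodendrocytes was lost (0 to 1) without Arc-veh F1, M1, F2 or M3, Arc-PMX M1, F2, M2, F3 or M3, WT-veh F2 or WT-PMX F2, at log2 values of 0.75 to 0.83. In CD11b-selected microglia, calls higher were 1 to 3 on PMX205 (1 without WT-PMX F2) and 2 to 3 over both treatments, and the count lower with PMX205 in WT cells was 0 to 1 (1 without WT-veh M2). *Gas7* in astrocytes and oligodendrocytes, *Cd9* and *Alcam* in oligodendrocytes, *Fmn1* and *Gas7* in OPCs and *Alcam* in microglia lost the call without single wells at values near the reported ones, and *Col27a1* in oligodendrocytes without WT-veh F2, at 1.19 against 1.45. Microglia had 4 WT-veh wells of nuclei and 3 of cells, which limits their tests.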
